A study of Mus musculus with 9 samples.

Results

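The genes described here encode the proteins of the cytosolic ribosome. They were chosen by name: every gene whose symbol starts with Rpl or Rps followed by a digit, with Rplp0, Rplp1, Rplp2 and Rpsa, leaving out the S6 kinases (Rps6k names) and symbols that carry -ps for a pseudogene. This gave 86 of the 23420 genes listed, 52 of the large subunit (Rpl) and 34 of the small subunit (Rps). RNA was sequenced from pieces of kidney cortex, about 50 mg each, of male C57/BL6 mice on chow. The mice were fasted for 16 h before they were killed (4 mice, the fasted group) or fed ad libitum (5 mice, the fed group), and the age of the mice and the batch are not given in the sources used here.

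The cytosolic ribosome is built from a small subunit, which reads the mRNA, and a large subunit, which joins amino acids, and each protein is needed in about the same number of copies. Mammalian ribosomal protein mRNAs typically begin with a cytosine and a run of pyrimidines, the terminal oligopyrimidine or TOP tract. Through this tract their translation follows the nutrient-sensing kinase complex mTORC1, acting in part through the RNA-binding protein Larp1, so ribosomal protein output can change with food supply while mRNA abundance does not. Mammalian genomes also hold many processed pseudogenes of these genes, copies of the spliced mRNA that share long stretches with the parent gene. The symbols caught by name include some that are not core subunits of the common ribosome: Rpl3l, Rpl10l and Rpl39l are paralogs of restricted expression, Rpl7l1 is a relative of Rpl7, and Rps19bp1 encodes a protein that binds Rps19. The ribosome components Fau and Gnb2l1 carry other symbols and are given with the related genes.

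A stretch of 50 bases from a coding exon is shown for 6 genes to let the reader see what counting had to tell apart. The stretches come from the GENCODE M21 transcripts on GRCm38 and are given in the sense of the mRNA. The first 3 genes are among the most abundant members and their stretches occurred in no other annotated gene. The stretch of Rpl3 occurred in 3 annotated pseudogenes, that of Rpl7 in 2, and that of Rps27 in 3 other genes, 2 of them pseudogenes.
Rpl4, exon 10, chr9:64178307-64178356: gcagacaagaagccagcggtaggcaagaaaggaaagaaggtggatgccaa
Rpl8, exon 4, chr15:76904902-76904951: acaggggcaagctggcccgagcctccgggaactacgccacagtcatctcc
Rps3, exon 6, chr7:99479350-99479399: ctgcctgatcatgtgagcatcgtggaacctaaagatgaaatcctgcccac
Rpl3, exon 2, chr15:80082461-80082510: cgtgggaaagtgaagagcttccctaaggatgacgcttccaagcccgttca
Rpl7, exon 6, chr1:16101809-16101858: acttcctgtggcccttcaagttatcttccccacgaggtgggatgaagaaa
Rps27, exon 3, chr3:90212964-90213013: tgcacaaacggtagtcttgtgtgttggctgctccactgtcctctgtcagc

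The annotated start sites show the TOP tract for part of the family. The lines below run from 20 bases before the RefSeq start to 20 bases from it on, on GRCm38.p6, and the capitals mark the run that begins with C at the start site and holds pyrimidines only.
Rpl14, chr9:120571497-120571536: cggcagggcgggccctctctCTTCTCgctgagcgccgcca
Rpl15, chr14:18270967-18271006: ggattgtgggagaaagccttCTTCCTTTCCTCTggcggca
Rps6, chr4:86857348-86857387: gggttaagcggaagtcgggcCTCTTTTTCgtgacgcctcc
Rplp2, chr7:141447631-141447670: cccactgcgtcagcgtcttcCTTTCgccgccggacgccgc
Of the 65 members with a RefSeq start, 13 began with C and at least 4 further pyrimidines (20.0%), against 813 of 27025 genes overall (3.01%) and 0 of 69 mitochondrial ribosomal protein genes. A start annotated a few bases away from the true one hides the tract, so a gene without a match was not shown to lack it.

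The libraries held between 18902645 and 32469467 counted reads. Values are normalized counts, which are reads divided by 1 size factor per library, and 1 read was worth between 0.744 and 1.32 of them. Fed 3 stood apart from the other libraries. Rn45s, the entry for ribosomal RNA, made up 2.36% of counts in Fasted 1 and 5.53% in Fed 3, against 0.513% to 1.38% in the others. Among the 82 members tested, Fed 3 held the lowest value of the 9 libraries for 32 and the highest for 12, while no other library was at an extreme for more than 20. Estimates without Fed 3 are given together after the small subunit genes.

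The ribosomal protein genes together took up slightly more of the library in the fasted kidneys on average, with overlap between mice of both groups. Their share of all normalized counts was 0.262%, 0.265%, 0.272% and 0.284% in the 4 fasted libraries, against 0.271%, 0.253%, 0.233%, 0.234% and 0.261% in the 5 fed libraries. The groups overlap, since Fed 1 lay above Fasted 1 and Fasted 2. The means were 0.271% ± 0.00964 in the fasted group (SD, n = 4) and 0.250% ± 0.0165 in the fed group (SD, n = 5), a difference of 0.0205 percentage points (0.0161 without Fed 3). With Rn45s left out of the total, they were 0.274% ± 0.00854 (SD, n = 4) and 0.255% ± 0.0146 (SD, n = 5), and Fed 3 stood at 0.247%. These shares rest on 50173 to 77143 member reads per fasted library and 45733 to 87842 per fed library. How reads that match several places were counted is not given, and its part in these shares was not tested. In tissue RNA of this kind, fewer cells of a type and less RNA per cell cannot be told apart.

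The balance of the large and small subunit differed little between the groups. The large subunit's summed counts were 1.33, 1.33, 1.34 and 1.32 times those of the small subunit in the fasted libraries, against 1.35, 1.33, 1.31, 1.32 and 1.39 in the fed libraries. All fasted values lie inside the fed range. The ratio averaged 1.33 ± 0.00673 in the fasted group (SD, n = 4) and 1.34 ± 0.0305 in the fed group (SD, n = 5), and the difference of -0.00934 was smaller than either the fed spread or the pooled SD of 0.0234.

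**Figure D1:**
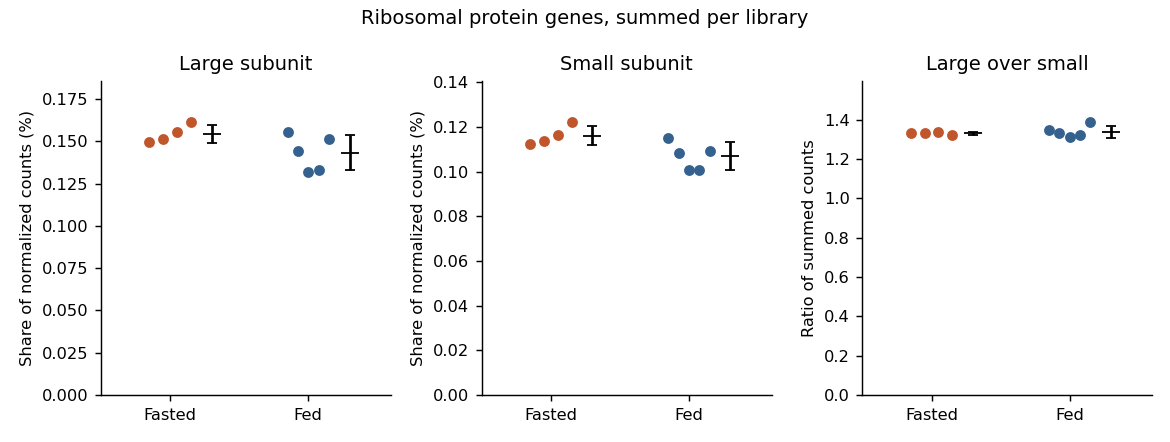
Share of normalized counts (%) in large subunit genes and in small subunit genes, and the ratio of their sums, with 1 point per library, fasted left of fed, and the mean ± SD as a bar beside the points. In both share panels the fasted mean is higher but the groups overlap, and the ratio stays between 1.31 and 1.39 in every library.

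Gene by gene, the estimated changes of ribosomal protein mRNAs were small. Of the 86 members, 82 reached a mean of 10 normalized counts, the minimum for testing, and entered the limma fit on log2(normalized count + 1). By limma, only Rpl3 passed an adjusted p under 0.05 over all genes tested, as an increase, and no member passed as a decrease. Among all 15098 genes tested, 5.72% were called higher and 5.25% lower (11% in either direction). The single call is 1.22% of the tested members. At an unadjusted p under 0.05, 17 members were higher and 0 lower, against 13.5% and 13.3% of all genes. At an adjusted p under 0.1 there were 8 members, all higher, against 8.95% of all genes higher (17.4% in either direction).

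The changes were small but mostly positive. The fitted log2 change, fasted over fed, was above 0 for 61 of the 82 members, against 50.2% of all genes tested. Its median was 0.15 for the members and 0.00089 for all genes. The large subunit had 35 of 48 above 0 with a median of 0.15, and the small subunit had 26 of 34 above 0 with a median of 0.15. Leaving out the symbols named above as not core subunits, and Rps4y2, 61 of 78 tested members were above 0 (78.2%), with a median of 0.15. All the members were measured in the same 9 libraries, so these counts are a description of them together and not independent observations.

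Intervals show how much change the data leave room for. For 77 of the 82 members the 95% interval of the log2 change lay within a 2-fold change in either direction, and for 51 it lay within 1.5-fold. The standard errors lay between 0.062 and 0.66, with a median of 0.15. The widest intervals belonged to genes whose libraries scattered within a group. Rps29, a small subunit protein, had 13.02, 68.1, 13.4 and 18.7 normalized counts in the fasted libraries, against 24.6, 73.6, 128, 20.4 and 13.9 in the fed ones. High and low libraries occur in both groups, and its interval ran from -2.18 to 0.73. Rpl35a, a large subunit protein, had 152, 465, 513 and 153 in the fasted libraries, against 460, 146, 126, 423 and 122 in the fed ones. Each group splits into a high and a low set, and the difference of 0.35 (SE 0.52) did not pass (limma adjusted p = 0.70).

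Other tools called a few more members, each of them higher. edgeR's quasi-likelihood test called 1 (5.72% of all genes were called higher by it) and voom called 1 (5.9%), in both cases Rpl3. DESeq2 called 3, Rpl3, Rpl7 and Rpl22l1, while it called 7.96% of all genes higher and 15.6% in either direction. Voom with quality weights called 6, which added Rpl17, Rpl22 and Rps3a1, while it called 8.77% of all genes higher and 17.9% in either direction (11.1% for voom without weights).

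**Figure D2:**
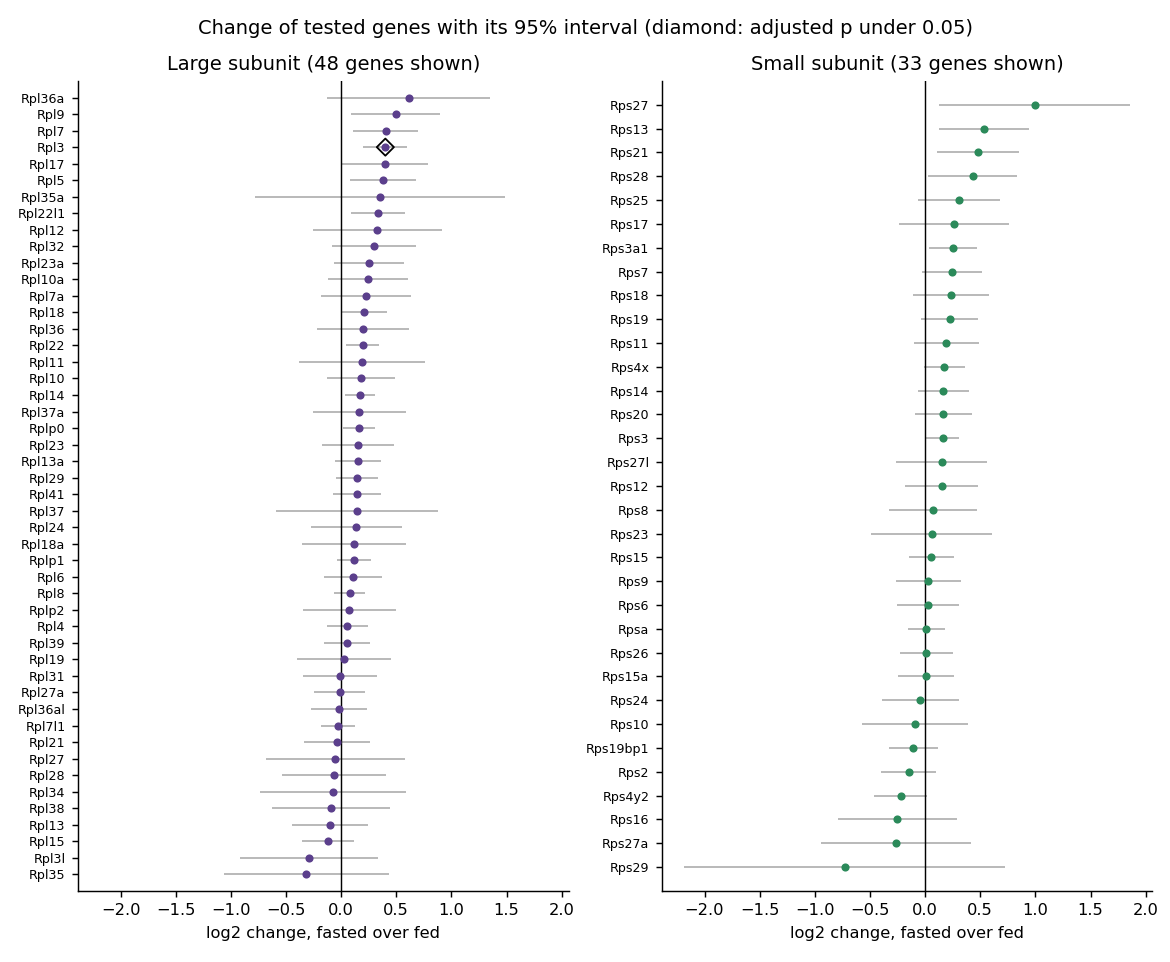
The log2 change of the tested ribosomal protein genes reported by name, fasted over fed, as a point with its 95% interval as a grey line, for the large subunit at left and the small subunit at right, sorted by size, with a diamond where the limma adjusted p was under 0.05. Most points lie right of 0, most intervals cross it, and Rpl3 carries the single diamond.

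The median deviation of the members from their own mean was also taken library by library. It was 0.042, 0.049, 0.076 and 0.10 on the log2 scale in the fasted libraries, against 0.038, -0.0028, -0.15, -0.15 and -0.090 in the fed ones. The groups do not overlap, but Fed 1 came close to Fasted 1, and the low values belong to Fed 3, Fed 4 and Fed 5. Between 49 and 61 of the 82 members were above their own mean in a fasted library, and between 20 and 45 in a fed one. Without Fed 3 the members' median log2 change was 0.11, without Fed 3 and Fasted 1 it was 0.11, and with quality weights on the libraries it was 0.090.

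**Figure D3:**
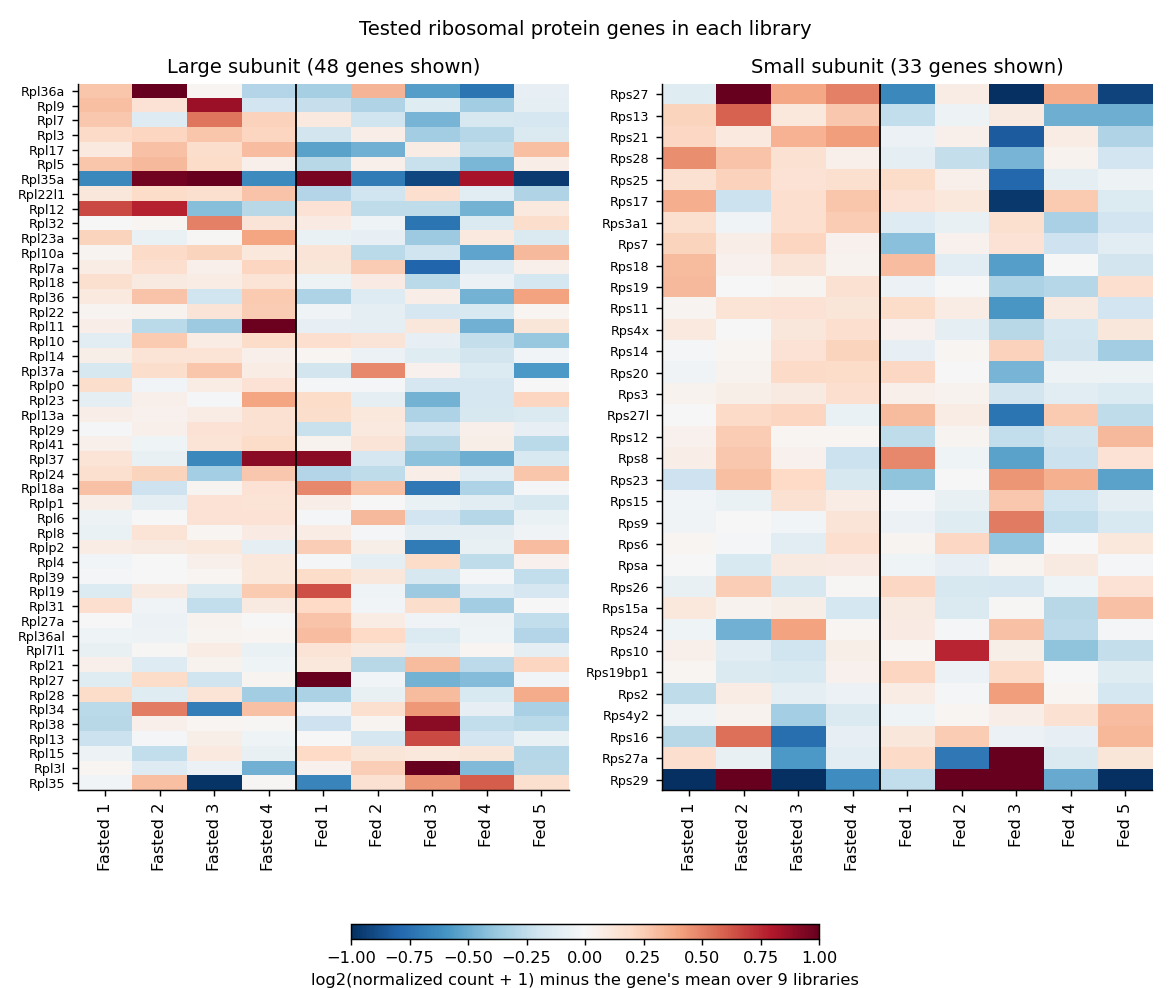
Tested ribosomal protein genes reported by name (rows, large subunit left and small subunit right, sorted by log2 change) in each library (columns, fasted left of the black line and fed right of it), coloured by log2(normalized count + 1) minus the gene's mean over the 9 libraries and limited to 1 in either direction. Pale colours fill most of the map, the column of Fed 3 holds the strongest colours in both directions, and Rps29 and Rpl35a vary strongly within each group.

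Among the large subunit proteins, Rpl3, which lies near the peptidyl transferase centre, was the member called. It had 421, 427, 446 and 427 normalized counts in the fasted libraries, against 325, 386, 289, 303 and 333 in the fed ones. The groups do not overlap. Rpl3 averaged 430 ± 10.8 in the fasted group (SD, n = 4) and 327 ± 37.1 in the fed group (SD, n = 5), a log2 change of 0.40 (SE 0.09; limma adjusted p = 0.0182). The gene lies at chr15:80077791-80091868 on the minus strand (GENCODE M21, GRCm38), and 14.4% of the 50-base windows of its transcript occur in no other annotated gene, the rest being shared with up to 26 pseudogenes. Leaving out Fasted 3 gave a limma adjusted p of 0.0549, leaving out Fasted 4 gave 0.0522, and leaving out both Fed 3 and Fasted 1 gave 0.0566, and over all 23 alternatives it ran from 0.00188 to 0.0566.

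The next members by p-value stopped short of the threshold. Rpl7, a large subunit protein, had 1239, 940, 1493 and 1204 in the fasted libraries, against 1099, 896, 743, 920 and 915 in the fed ones. Fasted 2 lies inside the fed range, and the difference of 0.41 (SE 0.13) did not pass (limma adjusted p = 0.0783). Rpl22l1, the paralog of Rpl22, had 213, 224, 220 and 239 in the fasted libraries, against 160, 171, 221, 181 and 159 in the fed ones. Only Fed 3 reaches the fasted values, and the difference was 0.33 (SE 0.11; limma adjusted p = 0.0804). Without Fed 3 the adjusted p of Rpl22l1 was 0.0188.

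Rpl22, an RNA-binding large subunit protein, had 1941, 1955, 2084 and 2271 in the fasted libraries, against 1867, 1779, 1700, 1720 and 1931 in the fed ones. The groups touch without overlapping, at 1941 and 1931, and the difference was 0.20 (SE 0.07; limma adjusted p = 0.0896). Rpl14 had 1213, 1274, 1279 and 1204 in the fasted libraries, against 1174, 1114, 1067, 1020 and 1137 in the fed ones. These groups do not overlap either, and the difference was 0.17 (SE 0.06; limma adjusted p = 0.0964). Altogether 7 members had all fasted libraries above all fed ones, 3 of the large and 4 of the small subunit, and 0 had the opposite, against 7.62% and 6.64% of all genes. Among them were Rpl3, Rpl14, Rpl22, Rps13, Rps21 and Rps28.

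**Figure D4:**
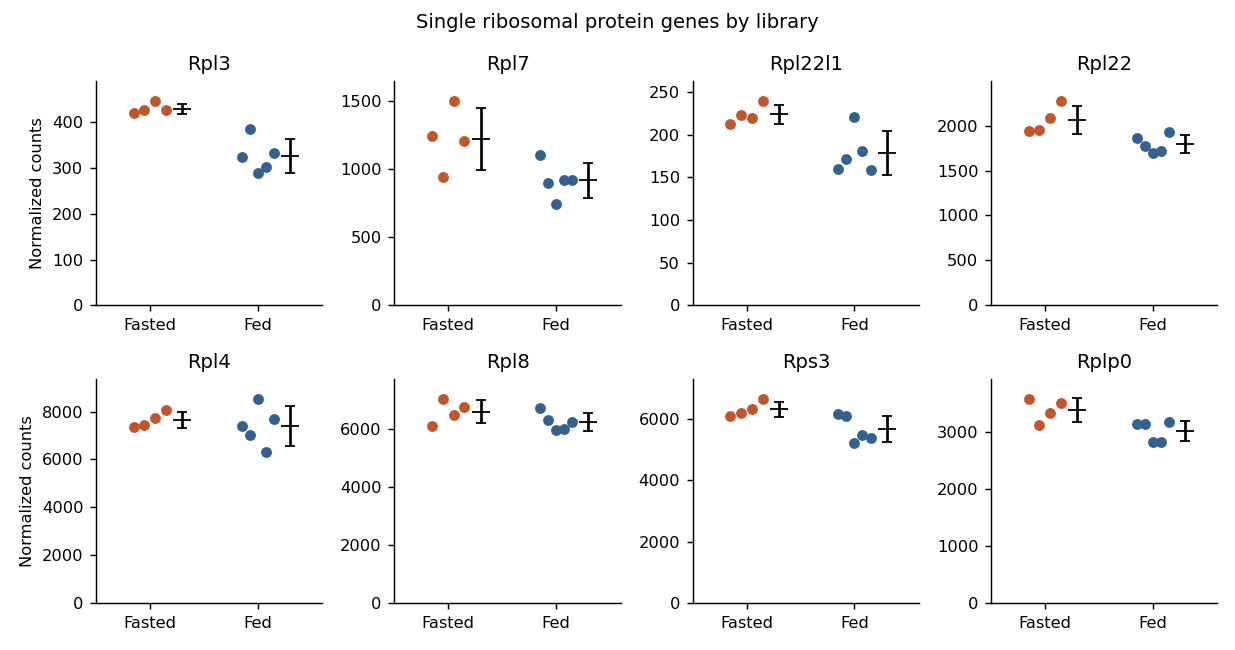
Normalized counts of 8 ribosomal protein genes, 1 point per library, fasted left of fed, with the mean ± SD beside the points and axes that start at 0. Rpl3 and Rpl22 separate the groups, Rpl7 and Rpl22l1 overlap through 1 library each, and Rpl4, Rpl8, Rps3 and Rplp0 overlap.

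The 5S ribonucleoprotein pair, Rpl5 and Rpl11, can also bind the p53 regulator Mdm2 when ribosome assembly is disturbed. Rpl5 had 139, 143, 129 and 118 in the fasted libraries, against 93.8, 118, 97.3, 82.7 and 119 in the fed ones. Fed 5 lies above Fasted 4, and the difference was 0.38 (SE 0.14; limma adjusted p = 0.0972). Rpl11 had 58.6, 46.3, 43.2 and 111 in the fasted libraries, against 52.8, 52.5, 60.5, 39.7 and 60.7 in the fed ones. Fasted 4 alone is high, and without that library the difference of 0.19 turned to -0.10. Rpl5 shares most of its transcript with other genes, since 6.16% of its windows were its own.

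The stalk proteins, which recruit elongation factors to the large subunit, had small positive estimates, and none was called. Rplp0 had 3582, 3125, 3340 and 3511 in the fasted libraries, against 3149, 3141, 2827, 2832 and 3180 in the fed ones. Fasted 2 lies inside the fed range, and the difference was 0.16 (SE 0.07; limma adjusted p = 0.139). Rplp1 averaged 2677 ± 199 in the fasted group and 2469 ± 156 in the fed group (SD, n = 4 and n = 5), and its difference of 0.12 (SE 0.07) did not pass (limma adjusted p = 0.328). Rplp2 had 93.0, 93.8, 94.95 and 82.7 in the fasted libraries, against 105, 92.1, 53.9, 83.8 and 109 in the fed ones. The fasted libraries lie inside the fed range, and its difference was 0.076 (SE 0.19).

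Rpl4 and Rpl8 had the highest mean counts of the large subunit. Rpl4, which lines the exit tunnel, averaged 7651 ± 320 in the fasted group and 7389 ± 823 in the fed group (SD, n = 4 and n = 5), a log2 change of 0.057 with a 95% interval from -0.13 to 0.24. Rpl8 averaged 6585 ± 390 in the fasted group and 6240 ± 301 in the fed group (SD, n = 4 and n = 5), a change of 0.077 with an interval from -0.062 to 0.22. Rpl10, which joins the large subunit late in assembly, averaged 142 ± 15.7 in the fasted group and 126 ± 20.3 in the fed group (SD, n = 4 and n = 5). Its change of 0.18 (SE 0.14) did not pass (limma adjusted p = 0.443).

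Among the small subunit proteins no member was called. Rps3, which sits where the mRNA enters, had 6102, 6193, 6322 and 6658 in the fasted libraries, against 6157, 6094, 5222, 5478 and 5399 in the fed ones. Fed 1 lies above Fasted 1, and the difference was 0.16 (SE 0.07; limma adjusted p = 0.160).

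Rps6, the substrate that names the S6 kinases, had 190, 184, 173 and 210 in the fasted libraries, against 190, 215, 142, 187 and 200.9 in the fed ones. The groups overlap fully, and the difference of 0.025 (SE 0.13) had a 95% interval from -0.25 to 0.30. Rpsa, also known as the laminin receptor, averaged 465 ± 35.0 in the fasted group and 461 ± 21.2 in the fed group (SD, n = 4 and n = 5). Its change was 0.011 with an interval from -0.16 to 0.18, which lies well inside 1.5-fold.

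The largest positive estimates of the small subunit came mostly from genes of low count. Rps27 had 11.2, 34.7, 16.3 and 17.8 in the fasted libraries, against 7.44, 12.9, 5.26, 16.1 and 5.97 in the fed ones. Fasted 2 is far above the rest, the groups overlap, and the difference of 0.99 (SE 0.39) did not pass (limma adjusted p = 0.133). Rps13 had 44.6, 57.8, 41.2 and 46.2 in the fasted libraries, against 32.0, 36.8, 40.8, 26.8 and 26.9 in the fed ones. Its groups do not overlap, though Fed 3 nearly reaches Fasted 3, and the difference was 0.53 (SE 0.18; limma adjusted p = 0.0885). Rps21 had 517, 479, 571 and 601 in the fasted libraries, against 432, 466, 251, 472 and 365 in the fed ones. Fed 3 is the lowest, and the difference was 0.48 (SE 0.17; limma adjusted p = 0.0980).

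For many members Fed 3 held the lowest or highest value, so the fit was also made without that library. The log2 change was then 0.36 for Rpl3 (limma adjusted p = 0.0275), 0.33 for Rpl7, 0.18 for Rpl22, 0.14 for Rplp0, 0.061 for Rpl8 and 0.11 for Rpl4. For small subunit genes it was 0.13 for Rps3, 0.32 for Rps21, 0.83 for Rps27, 0.36 for Rps28 and 0.12 for Rps4x. These keep their direction. Rplp2 (-0.091), Rps6 (-0.070) and Rps27l (-0.016) turned to negative values, and Rps29 (-0.29), Rpl3l (-0.056) and Rpl35a (0.17) came closer to 0. Of the genes listed so far in this paragraph Rpl3 alone passed without Fed 3. That fit called 3 members in all, each higher. The others were Rpl22l1 (0.41, limma adjusted p = 0.0188) and the small subunit gene Rps3a1 (0.32, limma adjusted p = 0.0373).

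The share of positive estimates differed by level. Of the 24 members with a mean of at least 500, 20 were above 0 (83.3%, against 46.6% of all genes at that level), and the median log2 change was 0.15, against -0.015. From 100 to 500, 25 of 31 members were above 0 (80.6%, against 51.7% of all genes), with a median of 0.15, against 0.0085. From 10 to 100 the members were close to all genes, with 16 of 27 above 0 (59.3%, against 56.4%) and a median of 0.076, against 0.053.

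Measured levels differed far more between genes of the ribosome than between the fasted and fed groups. The 5 highest members by mean held 42.6% of all member counts, and the 31 members with a mean under 100 held 2.24%. Levels of different genes are given here as normalized counts per kb of transcript, averaged over the 9 libraries. Rpl8 stood at 7513 per kb, Rplp1 at 5133 and Rpl4 at 4880. At the other end Rpl34 stood at 24.6 and Rpl35 at 13.8 per kb. On this scale the highest tested member was 545 times the lowest, although the ribosome holds about equal numbers of most of these proteins. The order depends on the length used. When the same counts were divided only by the windows found in no other gene, Rplp1 was the highest at 14231 per kb, Rpl8 stood at 8651, Rpl35 at 296 and Rpl3l was the lowest tested member at 27.0. This second scale is apt only if reads from shared windows were left uncounted, which is not known.

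The low levels went with shared sequence in part. For each member the share of its 50-base windows found in no other GENCODE gene was computed, and 85 of the 86 members could be matched (Rps4y2 could not). The median level was 807 per kb for the 31 members with at least 50% of windows of their own, 218 per kb for the 47 with 10% to 50%, and 82.7 per kb for the 6 with less than 10%. Across the 84 members with a level above 0, Spearman's rho between level per kb and that share was 0.42 and Pearson's r with log2 level was 0.28. The points share the same 9 libraries, so this is a description across genes. How the authors' counting treated reads that match several places is not given in the sources used here, and its part in the levels was not tested. The median log2 change after fasting was 0.13, 0.15 and 0.16 in these 3 classes. Across the 81 tested and matched members, Spearman's rho between the log2 change and the share of own windows was -0.26 and Pearson's r was -0.27, again a description across genes.

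**Figure D5:**
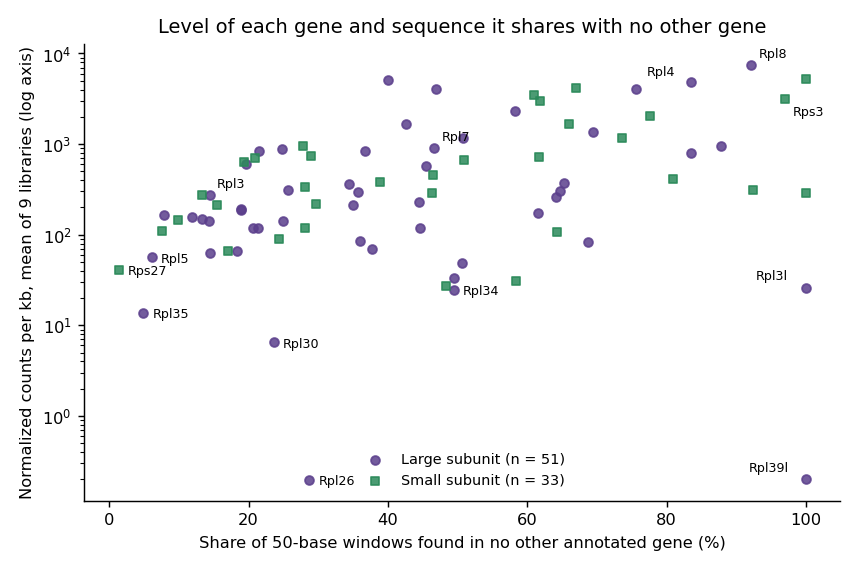
Level of each matched ribosomal protein gene with a mean above 0 (normalized counts per kb of transcript, mean of 9 libraries, log axis) against the share of its 50-base windows found in no other annotated gene (%), with circles for the large and squares for the small subunit. Genes with few windows of their own, such as Rps27 and Rpl35, lie low, but low and high levels occur across most of the axis.

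Some members were almost absent from the counts. Rpl26 was counted at a mean of 0.103 normalized counts and Rpl30 at 3.69, although both encode ordinary large subunit proteins. Rpl26 was above 0 in Fasted 1 alone, at 0.93, and at 0 in the other 8 libraries, where a count of 0 allows up to 3 reads per library. Rpl30 had 4.65, 5.14, 3.84 and 6.22 in the fasted libraries, against 1.49, 0.921, 2.63, 5.37 and 2.98 in the fed ones. Fed 4 lies inside the fasted range. In Rpl26, 28.7% of the windows were its own and 12 pseudogenes shared the others, and in Rpl30 the figures were 23.6% and 16. Similar figures went with a wide range of counts in other members. The mean was 24.5 for Rps28 (24.3% and 8), 373 for Rpl3 (14.4% and 26) and 701 for Rpl15 (24.8% and 23). The part of shared sequence in the counts of Rpl26 and Rpl30 was not tested.

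The order within paralog pairs could depend on the length used. Per kb of transcript Rps27l stood at 2052 and Rps27 at 41.1, but 1.35% of the windows of Rps27 (4 windows) occur in no other gene. Per kb of such windows the values were 2934 for Rps27l and 3545 for Rps27. The value for Rps27 divides a mean of 14.2 counts by 4 windows, so it does not rank this pair. Rpl7l1 and Rpl7 stood at 949 and 903 per kb of transcript, and at 1122 and 2019 per kb of windows of their own. Rpl36al stood above Rpl36a on both scales, at 841 and 62.7 per kb of transcript and at 2529 and 481 per kb of own windows.

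Where one copy is known for a restricted tissue, the common copy led on both scales, of which the level per kb of transcript is given. Rpl3 stood at 276 per kb and its muscle-enriched paralog Rpl3l at 26.0. Rpl39 stood at 807 per kb and Rpl39l at 0.201, while Rpl10 stood at 167 per kb and Rpl10l, known from the testis, was at 0 in all 9 libraries. In a pair for which no restricted tissue is named here, Rpl22 stood at 4043 per kb and Rpl22l1 at 360.

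Apart from Rpl3, no gene of these pairs passed the test. Rps27l averaged 1066 ± 101 in the fasted group and 990 ± 268 in the fed group (SD, n = 4 and n = 5), a log2 change of 0.15 (SE 0.19; limma adjusted p = 0.649). Rpl36a had 33.5, 72.0, 27.8 and 22.2 in the fasted libraries, against 21.6, 35.0, 18.4, 16.1 and 25.9 in the fed ones. Fasted 2 is far above the others, and the difference of 0.61 (SE 0.34) did not pass (limma adjusted p = 0.273) and was 0.27 without that library. Rpl36al changed by -0.018 (SE 0.12), Rpl7l1 by -0.025 (SE 0.07), Rpl39 by 0.050 (SE 0.095) and Rpl3l by -0.29 (SE 0.29), or -0.056 without Fed 3. Rps4x, the X-linked small subunit gene, changed by 0.17 (SE 0.085; limma adjusted p = 0.217).

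Members with a TOP tract at the annotated start had a median log2 change of 0.025, with 8 of 13 above 0. The 49 tested members with a start but no such tract exactly at it had a median of 0.15, with 37 above 0. A start annotated a few bases off hides the tract, so these 49 were not shown to lack it. The sets are split by annotated start and need not differ in the tract itself. Rpl3, the only member called, was in neither set, so neither could hold a called member. The difference between the sets was not tested.

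The authors' deposited table, made with their own fit, also had few ribosomal protein genes past its threshold. Of the 81 members with an adjusted p in the authors' deposited table, 5 were under 0.05, against 16% of all genes. These 5 were higher in fasted kidneys: Rpl3 (adjusted p = 0.00192), Rpl7 (0.0287), Rpl22l1 (0.0463), Rpl9 (0.0491) and Rps21 (0.0497), all in the authors' deposited table. None of the 705 terms in the authors' deposited annotation chart named the ribosome or translation.

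Related genes of protein synthesis are given for comparison, with 11% of all genes tested called in either direction. Among 21 other mRNAs known to carry a TOP tract, 3 rose and 0 fell (14.3% called), with a median log2 change of 0.15, and 16 of the 21 were above 0. The increases were the spliced host transcripts Snhg1 (0.91, SE 0.14) and Gas5 (0.37, SE 0.10), both non-coding, and Eif3e (0.32, SE 0.09), a subunit of initiation factor 3 (limma adjusted p = 0.00238, 0.0329 and 0.0395). Gnb2l1, which encodes the small subunit protein Rack1, had 8468, 8525, 8926 and 9166 in the fasted libraries, against 7969, 8121, 6483, 7367 and 7486 in the fed ones. The groups do not overlap, and the difference of 0.23 (SE 0.07) did not pass (limma adjusted p = 0.0692). Fau, a ribosomal protein fused to a ubiquitin-like one, averaged 62.6 ± 6.29 in the fasted group and 55.8 ± 12.1 in the fed group (SD, n = 4 and n = 5).

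Translation initiation factors had 4 higher and 1 lower of 35 tested (14.3% called, against 11% of all genes). Eif6, which keeps free large subunits apart from small ones, rose to 1824 ± 244 in the fasted group, against 1236 ± 65.9 in the fed group (SD, n = 4 and n = 5; log2 change 0.55, limma adjusted p = 0.00401). Eif3m rose by 0.54 (limma adjusted p = 0.00426), and Eif4g3 fell by 0.60 (limma adjusted p = 0.00475). None of 13 elongation and termination factors was called by limma. With an unadjusted limma p under 0.05 there were 3 higher and 0 lower, against 13.5% and 13.3% of all genes.

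Ribosome assembly factors had 3 higher and 1 lower of 40 tested (10% called, against 11% of all genes), with a median of -0.017. Utp20, a factor for the small subunit's RNA, rose to 4387 ± 232 in the fasted group, against 2641 ± 187 in the fed group (SD, n = 4 and n = 5; log2 change 0.73, limma adjusted p = 0.000168). Wdr43 rose by 0.33 and the nucleolar GTPase gene Gnl3 by 0.38 (limma adjusted p = 0.0208 and 0.0222). Bop1, needed for large subunit RNA processing, fell by 0.28 (limma adjusted p = 0.0381). None of 27 RNA polymerase I and III genes was called by limma, and their median was -0.0041. With an unadjusted limma p under 0.05 there were 2 higher and 1 lower, against 13.5% and 13.3% of all genes.

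The mTORC1 list had 3 higher and 0 lower of 39 tested (7.69% called, against 11% of all genes), with a median of -0.022. The higher genes were Sesn2 (0.72, SE 0.12), Sesn1 (0.39, SE 0.10) and Eif4ebp3 (1.12, SE 0.29), with limma adjusted p of 0.00478, 0.0291 and 0.0321. Sesn2 had 2719, 1901, 1853 and 2022 in the fasted libraries, against 1124, 1454, 1254, 1427 and 1130 in the fed ones. All fasted libraries lie above all fed ones. The cytosolic aminoacyl-tRNA synthetases, which charge tRNAs, had 0 higher and 1 lower of 20 (5% called; Wars, fell by 0.27, limma adjusted p = 0.0313).

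The mitochondrial ribosome, a separate machine, had mostly negative estimates. Of its 76 tested genes 21 were above 0 and the median log2 change was -0.073, with Mrpl14 higher (0.43, limma adjusted p = 0.0419) and Mrpl37 lower (-0.32, limma adjusted p = 0.0222), which is 2.63% called against 11% of all genes. At an unadjusted p under 0.05, 3 were higher and 16 lower, against 13.5% and 13.3% of all genes. The difference between the cytosolic and the mitochondrial list was not tested. Of the 6 ribosomal protein pseudogenes named -ps in the table, 3 were tested and 0 were called by limma, with 0 at an unadjusted p under 0.05.

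Cell type markers were present as the label kidney cortex asks and moved somewhat with the groups. For comparison, 5.72% of all genes tested were called higher and 5.25% lower. The 5 proximal tubule markers summed to between 328617 and 377545 normalized counts in the fasted libraries and between 375359 and 540536 in the fed ones, with 1 of 5 lower. Adipocyte markers summed to between 776 and 1108 in the fasted libraries and between 510 and 769 in the fed ones, with both tested markers higher. Collecting duct markers summed to between 3716 and 4292 in the fasted libraries and between 4114 and 6296 in the fed ones, with 1 of 3 lower. Of 3 endothelial markers 1 was higher and 1 lower and of 3 fibroblast markers 1 was lower. Lymphocyte markers summed to between 355 and 704 in the fasted libraries and between 380 and 550 in the fed ones. Hepatocyte markers summed to between 2617 and 9295 in the fasted libraries and between 470 and 11228 in the fed ones. Red cell markers summed to between 338 and 498 in the fasted libraries and between 249 and 556 in the fed ones. Of these, Hba-a1 was listed at 0. Thick ascending limb markers summed to between 137294 and 169659 in the fasted libraries and between 109007 and 146471 in the fed ones. None of the thick ascending limb, distal tubule, podocyte and macrophage markers was called. The part of cell composition in the ribosomal protein changes was not tested.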

How the data were processed

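Kidney cortex RNA of 4 fasted and 5 fed mice was sequenced, 1 library each, from TRIzol RNA and TruSeq libraries per the labels' protocols. FastQC, TopHat2 2.0.9, HTSeq 0.9.1 and DESeq2 (given as 3.5), and the builds mm10 and hg19, are named per the submitters' processing notes. The deposited signal columns hold normalized read counts: each of the 161194 non-zero values, divided by the step of its library, came out whole (tolerance 0.01 reads, 0 exceptions), so the authors scaled each library by 1 factor, and 0 sample columns were left unused. The deposited log2 fold changes, the score column and the p-value columns are from the authors' fit. The deposited annotation chart gives a fold enrichment ratio and p-value per term. Replicate libraries were not duplicates, with 16.7 to 117 as chi-square over degrees of freedom in the 16 pairs.

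The test was limma 3.58.1 with a trend, two-sided, on log2(value + 1), in R 4.3.3, for genes whose normalized counts averaged 10 or more, with Benjamini-Hochberg adjustment over all of them. It was also run on the recovered reads with DESeq2 1.42.0 and edgeR 4.0.16, with voom, and with other filters, pseudocounts, scalings and libraries left out. The steps were tested on simulated data. Members and lists were chosen with earlier results of these data known. Named members were those with the smallest p, the highest and lowest levels, fixed roles and paralog pairs. Rps21, Rpl9, Rpl35a, Rps29, Rpl26, Rpl30, Gnb2l1, Fau and Rpl15 were named after their values were seen. Transcript length and shared windows of 50 bases came from GENCODE M21, and starts from RefSeq. Some genes are not reported here by name and stay in the counts. Floors cover counting error only.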

Additional observations from a re-analysis of the deposited data

Results flagged for a closer look

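In 1 of the 66 groups checked among named ribosomal protein genes, a library lay far from the rest of its group. Fasted 4 had 82.7 normalized counts of Rplp2, a stalk protein gene, and the other fasted libraries had between 93.0 and 94.95. The gap was 0.841 of the group's range. Chance alone flags about 1 in 20 groups. The fed libraries of Rplp2 spread more widely, and without Fasted 4 the log2 change was 0.12.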

How the results depend on the processing

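Over 23 alternative settings, the median log2 change of the ribosomal protein genes stayed positive, between 0.090 and 0.18, and no scaling moved the median of all genes by over 0.1. Called ribosomal protein genes, 1 in the reported fit, numbered 1 with edgeR and voom, 3 with DESeq2, 6 with quality weights, 2 with the Rn45s share as a covariate, 8 at an adjusted p under 0.1, and 0 to 3 with a library left out (0 without Fasted 3 or Fasted 4, 2 without Fasted 2, 3 without Fed 3). For the large subunit these counts were 3 with DESeq2, 5 with quality weights, 6 at the looser threshold and 0 to 2 with a library left out. For the small subunit they were 1 with quality weights, 1 with the covariate, 2 at the looser threshold and 0 to 1 with a library left out. All genes called, 1656 in the reported fit, numbered 2702 with quality weights, 1068 without Fed 3 and Fasted 1, 2628 at the looser threshold, and 861 to 1956 with a library left out, lowest without Fasted 4. Calls in the pathway lists numbered 37 with quality weights, 28 with DESeq2, 34 at the looser threshold, and 6 to 32 with a library left out, lowest without Fasted 4 and highest without Fed 5, against 17 in the reported fit. The causes were not tested.

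Of the 30 named members tested, 10 changed sign under some setting, and none of these was called. Rpl34 was 0.11, Rplp2 -0.10 and Rps6 -0.073 without Fed 3 and Fasted 1. With quality weights Rplp2 was -0.031, Rps6 -0.038, Rpl39 -0.016 and Rps27l -0.011. Rps6 was -0.011 with the covariate, and Rpsa was -0.0011 with the total taken without Rn45s. With a library left out, the log2 change ran from -0.25 to 0.15 for Rpl34, -0.066 to 0.18 for Rps23, -0.091 to 0.16 for Rplp2, -0.018 to 0.063 for Rpsa, -0.070 to 0.079 for Rps6, -0.10 to 0.34 for Rpl11, -0.055 to 0.0062 for Rpl7l1, -0.093 to 0.058 for Rpl36al, -0.0048 to 0.10 for Rpl39 and -0.016 to 0.24 for Rps27l. No paired analysis was possible because the labels give the groups no shared replicate numbers. The 4 members with a mean under 10 did not enter the fit, and the cause of their low counts was not tested.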
